A study of Mus musculus with 24 samples.

Results

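The effect of deleting Kdm6a was measured in male mice by comparing 6 libraries of spinal cord microglia labelled Kdm6a cKO (conditional knockout) with 6 labelled wildtype, which are 12 of the 24 RNA-seq libraries of the series. They were chosen by the sex and genotype given in the sample labels, and all 16535 genes expressed above a count filter were examined. The other 12 libraries are 6 female cKO and 6 female wildtype. Every library, wildtype included, came from a Tmem119-Cre:RiboTag mouse with experimental autoimmune encephalomyelitis (EAE), the mouse model of multiple sclerosis. In such mice the Cre recombinase is driven by Tmem119, a gene of microglia, and RiboTag marks ribosomes of Cre-expressing cells so that their RNA can be pulled down. The labels do not say whether the sequenced RNA was the pulled-down fraction. The labels state neither ages, disease stage nor the exons deleted. The 4 groups were male cKO, male wildtype, female cKO and female wildtype, all under EAE.

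Kdm6a lies on the X chromosome and encodes a demethylase that removes repressive methyl groups from lysine in the tail of histone H3, and it is also a subunit of an enhancer-activating methyltransferase complex. The mouse gene escapes X inactivation, so female cells express it from both X chromosomes, while male cells carry a single copy beside the related Y-linked gene Uty, whose protein has little demethylase activity. Microglia are the resident macrophages of the spinal cord, and in EAE they take part in interferon responses, antigen presentation, chemokine release and the clearing of myelin lipids.

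The male libraries held 28515270 to 36768501 counts each. Levels are given in CPM, the count scaled by a library size corrected with TMM, a normalization for composition. The number in the sample title was shared by up to 4 male libraries, was never shared by a cKO and a wildtype library, and in several cases was shared by male and female libraries of 1 genotype. The labels do not say whether libraries came from separate animals, so p-values measure only the spread between these samples. Replicates are numbered in accession order. Among the male libraries, the first principal component (27.8% of the variance) separated replicates 1 to 3 of both genotypes from replicates 4 to 6, and the second (12.2%) separated the genotypes, at -17.39 to -10.02 in cKO and -3.17 to 39.32 in wildtype. Male cKO replicate 3 held 16 counts of Xist, the RNA of the inactive X chromosome, against 0 in each other male library, and the calls made without it are given beside those made with it.

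Kdm6a (ENSMUSG00000037369, chromosome X, 18162575 to 18279936, mm10) fell in male cKO microglia. The lowest, median and highest levels were 0.647, 0.961 and 1.73 CPM in cKO, against 1.97, 2.70 and 4.03 CPM in wildtype. The groups did not overlap, and the highest cKO value stood in replicate 1. The mean was 1.08 ± 0.382 CPM in cKO and 2.79 ± 0.705 CPM in wildtype (SD, n = 6 each), so cKO libraries kept 38.6% of the wildtype level. A 2-sided exact permutation test on CPM gave p = 0.00216, the smallest that 6 against 6 allow. Gene-level counts keep reads from exons outside a deleted stretch, and a share of cells without recombination cannot be told apart from such reads. Uty differed by less than its spread, at 0.969 ± 0.564 CPM in cKO and 1.11 ± 0.693 CPM in wildtype (SD, n = 6 each; exact permutation p = 0.71). Kdm6b, the autosomal relative that shares the demethylase activity, stood at 9.14 ± 2.30 CPM in cKO and 7.70 ± 2.03 CPM in wildtype (SD, n = 6 each; exact permutation p = 0.288). Tmem119, whose promoter drives the Cre, had 347 ± 46.1 CPM in cKO and 346 ± 75.0 CPM in wildtype (SD, n = 6 each; exact permutation p = 0.972).

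In males 31 genes, 0.187% of those tested, passed edgeR's quasi-likelihood test at a Benjamini-Hochberg adjusted p under 0.05. Of these, 12 were higher in cKO (0.0726% of the genes tested) and 19 were lower (0.115%), and 7 of the 12 and 10 of the 19 changed at least 2-fold. The genes that fell include the leukocyte integrin subunit Itgal, the macrophage receptor Adgre1 (F4/80), the endotoxin-degrading lipase Aoah and the matrix glycoprotein Emilin2. Those that rose include the chemokines Ccl6 and Ccl9, their receptor gene Ccr1 and the cytokine receptor chain Il20rb. The levels in cKO and wildtype libraries did not overlap for 25 of the 31, against 0.575% of all genes tested (95 genes), a share that the calls themselves help to fix. Most of these calls did not hold in a fit that allows for shared title numbers. That fit also replaces edgeR with limma, and the effects of these changes were not told apart. With the title number as a random effect (limma, estimated correlation 0.216), 29 of the 31 calls were lost, and only Tspan7 and Tmem154 stayed under the threshold (adjusted p = 0.000549 and 0.00563). The adjusted p in that fit was 0.0848 for Ak1 and Itgal, 0.0999 for Ccl6, 0.164 for Ccl9, 0.328 for Kdm6a, 0.584 for Il20rb and 1 for Ccr1. Without male cKO replicate 3, the library with Xist counts, 21 genes were called, all of them among the 31. The calls lost without it were Aoah and B3gnt8 (adjusted p = 0.126 each), Vsig10 (0.107), Prss46 (0.0977), Ramp1 and Gm5424 (0.0958 each), Sh3bp5 (0.0901), Ccr1 (0.0824), Klk8 and Ppp1r12b (0.0648 each). The words rose and fell refer to the edgeR fit of all 24 libraries. An unnamed gene model, Gm5431, and a pseudogene, Gm5424, are among the 31. Gm5424 had 229 to 322 CPM in cKO and 88.4 to 190 CPM in wildtype, and neither is described further. The counting method is not given, so reads of closely similar genes, such as Lyz1 and Lyz2, or of a pseudogene and its parent gene, cannot be assigned with certainty. For the related pair Kdm6a and Uty, female libraries held 0 to 8 Uty counts beside 44 to 224 Kdm6a counts. Few Kdm6a reads were thus counted as Uty. Whether Uty reads were counted as Kdm6a in males cannot be read from these values.

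**Figure D1:**
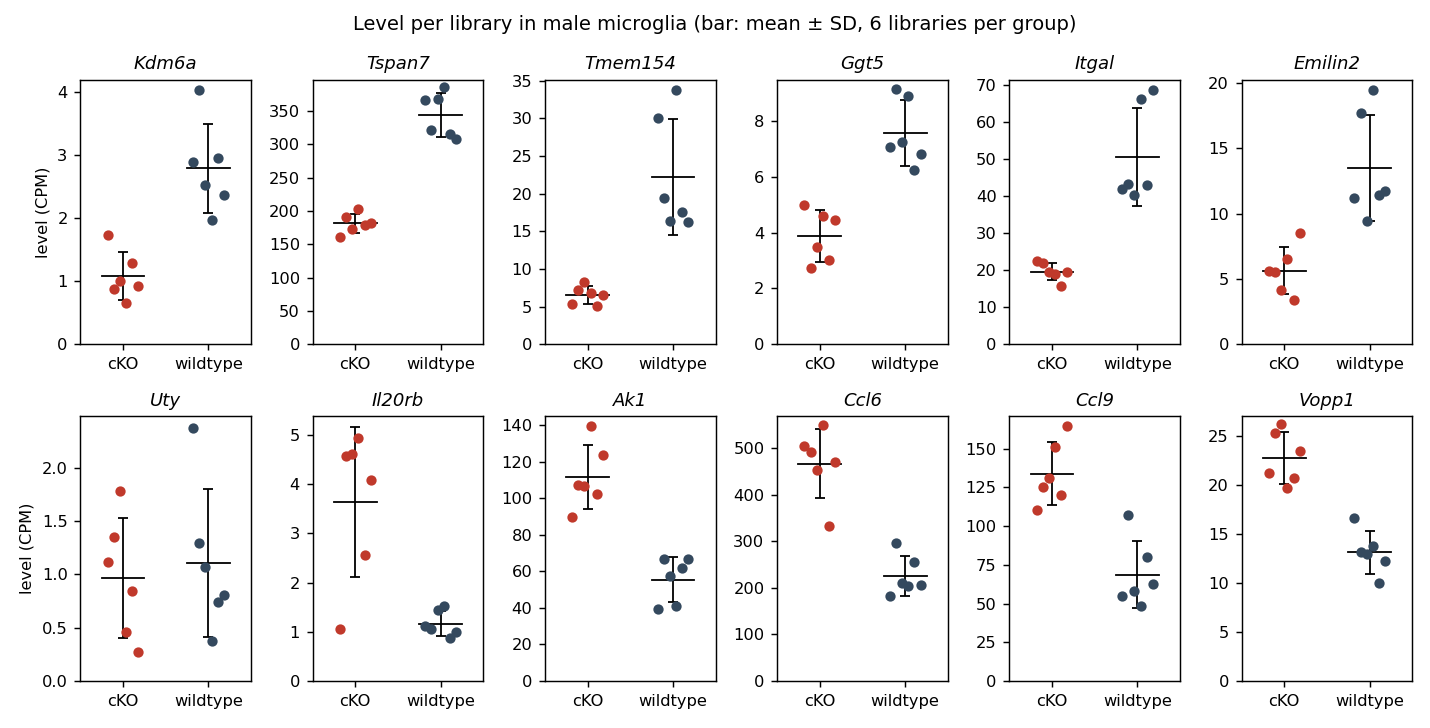
Level in CPM of 12 genes in each male library, with cKO on the left and wildtype on the right of each panel; points are libraries in the order of their replicate numbers, and bars show the mean and SD of 6 libraries. The groups do not overlap for Kdm6a, Tspan7, Tmem154, Ggt5, Itgal, Emilin2, Ak1, Ccl6, Ccl9 and Vopp1, whereas 1 cKO library lies at the wildtype level for Il20rb, and Uty overlaps throughout.

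The promoters of the called genes with the smallest p and a single start site in the reference, 2 lower and 2 higher in cKO, are printed because the protein of the deleted gene acts on chromatin at promoters and enhancers. Each runs from 250 bases before to 50 bases after the start, from RefSeq on GRCm38.p6, the patch release of mm10, 5′ to 3′ on the strand of the gene. Capitals mark a match to the AP-1 motif (TGANTCA).
Tspan7, X:10484866-10485165, + strand: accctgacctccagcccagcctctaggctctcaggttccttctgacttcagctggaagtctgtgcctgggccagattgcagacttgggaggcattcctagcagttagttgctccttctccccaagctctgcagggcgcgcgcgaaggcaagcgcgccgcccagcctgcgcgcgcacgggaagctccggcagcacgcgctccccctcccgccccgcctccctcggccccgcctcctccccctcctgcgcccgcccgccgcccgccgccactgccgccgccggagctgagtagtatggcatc
Tmem154, 3:84665942-84666241, + strand: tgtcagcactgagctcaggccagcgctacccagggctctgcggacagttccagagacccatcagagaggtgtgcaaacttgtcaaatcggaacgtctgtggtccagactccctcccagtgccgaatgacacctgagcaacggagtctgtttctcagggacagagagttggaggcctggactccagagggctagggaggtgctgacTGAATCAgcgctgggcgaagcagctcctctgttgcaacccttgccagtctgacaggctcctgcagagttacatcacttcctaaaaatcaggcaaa
Il20rb, 9:100486424-100486723, - strand: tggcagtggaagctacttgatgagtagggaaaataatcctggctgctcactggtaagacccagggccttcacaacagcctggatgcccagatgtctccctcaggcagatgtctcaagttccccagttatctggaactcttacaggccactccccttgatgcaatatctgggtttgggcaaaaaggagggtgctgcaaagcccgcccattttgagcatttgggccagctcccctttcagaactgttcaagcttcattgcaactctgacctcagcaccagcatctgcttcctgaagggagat
Ccl6, 11:83593038-83593337, - strand: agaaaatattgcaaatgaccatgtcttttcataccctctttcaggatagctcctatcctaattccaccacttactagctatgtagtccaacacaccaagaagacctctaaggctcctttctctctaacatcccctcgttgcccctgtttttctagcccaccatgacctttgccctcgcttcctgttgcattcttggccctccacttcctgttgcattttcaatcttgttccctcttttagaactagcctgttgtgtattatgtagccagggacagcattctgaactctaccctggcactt
The window of Tspan7 holds 27 CpG dinucleotides and that of Tmem154 holds 8. The windows of Il20rb and Ccl6 hold 1 and 2, and the median over all windows is 7. In all, 23 of the 29 named called genes matched at least 1 window, and they have 30 windows together. The core of the PU.1 motif (GAGGAA), bound by the main myeloid factor, lay in 8 of these 30 windows, each of a different gene, and 28.3% of all 32851 windows hold it on either strand. The AP-1 motif lay in 4 of the 30 (Ak1, Ccl9, Slc2a9 and Tmem154), against 7.81% of all windows. The interferon response element (GAAANNGAAA) lay in 2 of the 30 (Aoah and Emilin2), against 3.44%. A match is a description of letters and no evidence of binding.

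Tspan7, a tetraspanin that organizes other membrane proteins, had the smallest p of all genes in males. The lowest, median and highest levels were 161, 180 and 203 CPM in cKO, against 308, 344 and 386 CPM in wildtype. Every cKO library lay more than 100 CPM below every wildtype library. The log2 change was -0.92 (SE 0.098, adjusted p = 1.21e-05). Tspan7 lies on the X chromosome at 10485158 to 10596605 (mm10), and the deleted Kdm6a lies on the same chromosome at 18162575 to 18279936. Whether this location has a part in the change of Tspan7 was not tested. Tmem154, a transmembrane protein, came next, with 5.14, 6.62 and 8.32 CPM in cKO and 16.2, 18.5 and 33.7 CPM in wildtype. Its log2 change was -1.76 (SE 0.222, adjusted p = 0.000176), and its groups were also apart.

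Itgal, Adgre1 and Aoah were among the genes that fell. Itgal encodes the alpha chain of LFA-1, the integrin that binds ICAM proteins on other cells. It had 15.6, 19.5 and 22.4 CPM in cKO (lowest, median and highest) and 40.2, 43.2 and 68.8 CPM in wildtype, with no overlap. The log2 change was -1.36 (SE 0.239, adjusted p = 0.00984). Itgb2, the beta chain that pairs with Itgal, did not pass and leaned the other way, at 832 CPM on average in cKO and 654 CPM in wildtype (log2 0.35, adjusted p = 0.331). Adgre1 averaged 106 CPM in cKO and 171 CPM in wildtype (log2 -0.69, adjusted p = 0.0351). Aoah, which removes acyl chains from bacterial endotoxin, averaged 9.68 CPM in cKO and 24.1 CPM in wildtype (log2 -1.31, adjusted p = 0.0468, and 0.126 without cKO replicate 3). The cKO and wildtype libraries did not overlap for Adgre1 or Aoah.

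Ggt5 and Emilin2 stood next among the genes that fell. Ggt5, which converts leukotriene C4 to D4, had 2.73, 3.95 and 4.996 CPM in cKO and 6.25, 7.15 and 9.16 CPM in wildtype (log2 -0.97, SE 0.162, adjusted p = 0.00783). Emilin2 had 3.38, 5.54 and 8.49 CPM in cKO and 9.43, 11.6 and 19.4 CPM in wildtype (log2 -1.27, SE 0.225, adjusted p = 0.00984). Both genes were lower in every cKO library than in any wildtype library. Liph, a lipase that makes lysophosphatidic acid, changed by -0.68 on the log2 scale, and Slc2a9, a urate transporter, by -0.64 (adjusted p = 0.0123 each). Ramp1, a part of the receptor for calcitonin gene-related peptide, changed by -1.07, and Ppp1r12b, a regulatory subunit of myosin phosphatase, by -0.93. Rgl1, an exchange factor for Ral, changed by -0.60, and Sh3bp5, an exchange factor for Rab proteins, by -0.69. B3gnt8, a glycosyltransferase, changed by -1.23 and Prss46, a serine protease, by -2.30, with Prss46 at only 0.245 CPM on average in cKO against 1.23 CPM in wildtype. Lrguk, known for a role in mouse sperm formation, changed by -1.07. The groups of Slc2a9, Ppp1r12b, Sh3bp5 and Lrguk overlapped.

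The chemokine pair was the clearest group among the genes that rose. Ccl6 and Ccl9 are neighbouring chromosome 11 genes for CC chemokines that attract myeloid cells. Ccl6 had 334, 481 and 550 CPM in cKO (lowest, median and highest) and 182, 208 and 297 CPM in wildtype. Ccl9 had 110, 128 and 165 CPM in cKO and 48.6, 60.2 and 107 CPM in wildtype. Neither gene's groups overlapped, although the highest wildtype value of Ccl9 came close to the lowest cKO value. The log2 changes were 1.05 for Ccl6 (SE 0.176, adjusted p = 0.00783) and 0.97 for Ccl9 (SE 0.171, adjusted p = 0.00984). Of the 21 chemokine genes tested these were the only ones called, and the median log2 change of the list was 0.01, against 0.008 over all genes. Ccr1, a receptor of such chemokines, had 1.14, 2.90 and 7.05 CPM in cKO and 0.204, 0.422 and 1.10 CPM in wildtype (log2 2.56, SE 0.551, adjusted p = 0.0478, and 0.0824 without cKO replicate 3). Its groups met almost edge to edge, and its highest level stood in male cKO replicate 1. Of the 11 chemoattractant receptors tested it was the only one called.

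Il20rb, the beta chain of the receptors for interleukin 20 and its relatives, had 1.06, 4.34 and 4.95 CPM in cKO and 0.873, 1.09 and 1.52 CPM in wildtype. Male cKO replicate 1 lay within the wildtype range, and the other cKO libraries lay above it. The log2 change was 1.64 (SE 0.26, adjusted p = 0.00661). Stac2, an adaptor of voltage-gated calcium channels, showed the same arrangement, with replicate 1 lowest in cKO at 12.9 CPM, a median of 30.9 and a highest of 38.2 CPM, against 11, 13.1 and 13.7 CPM in wildtype (log2 1.13, SE 0.205, adjusted p = 0.011). Ak1, which interconverts adenine nucleotides, had 89.6 to 140 CPM in cKO and 39.1 to 67.0 CPM in wildtype (log2 1.01, SE 0.166, adjusted p = 0.00783). Its groups were apart.

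Among the other genes that rose, Smap2, an Arf GTPase-activating protein of vesicle transport, was the most abundant. It had 638 to 984 CPM in cKO and 507 to 614 CPM in wildtype (log2 0.60, adjusted p = 0.011). Arhgef5, a guanine nucleotide exchange factor, changed by 0.94, and Vopp1, a vesicle membrane protein, by 0.80 (adjusted p = 0.00984 each). Klk8, the serine protease neuropsin, changed by 1.25 (adjusted p = 0.0377), and Vsig10, a membrane protein with immunoglobulin domains, by 0.71 (adjusted p = 0.0442). None of these 5 genes had overlapping groups.

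In females the same test called 1279 genes, 7.74% of those tested. Some female wildtype libraries are doubted, as described with the processing, and remain in this fit. The shared core holds 29 genes called in both sexes in the same direction, 11 higher and 18 lower, which is 93.55% of the male calls and 2.267% of the female calls. The male and female comparisons share no library but share title numbers and 1 estimate of spread per gene. With the title number as a random effect the genes called in both sexes in the same direction numbered 2, Tspan7 and Tmem154, which were also the only male calls of that fit. Of the 29, 28 changed less in males, and the exception was Kdm6a itself, with -1.36 in males and -0.85 in females (log2). The median absolute log2 change of the 29 was 1.01 in males and 1.58 in females. Calls rest on size and spread in both sexes, so these medians are a description.

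**Figure D2:**
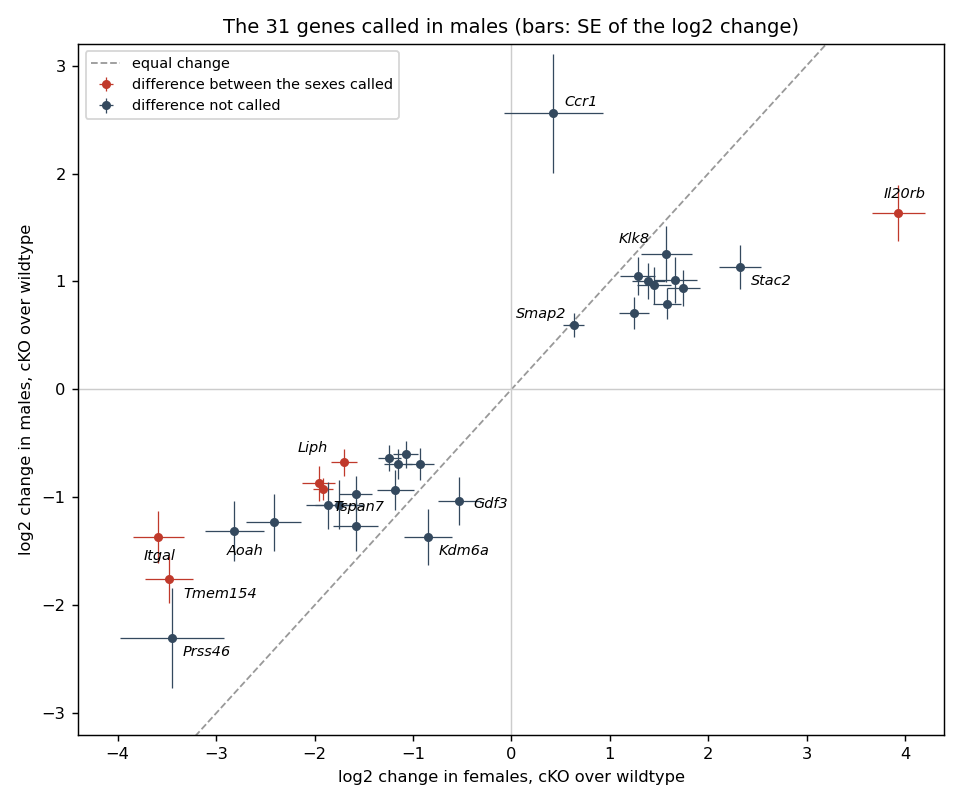
Log2 change in cKO over wildtype in males (vertical axis) against females (horizontal axis) for the 31 genes called in males, with bars of 1 SE and a dashed line of equal change; red marks the 6 genes whose difference between the sexes was called. All 31 share their sign, and most lie nearer to 0 on the male axis than the line of equal change.

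The difference between the sexes was tested as an interaction in the same fit, and 68 genes were called (0.411% of those tested). All 68 were also called in females. In 50 the gene was lower in female cKO and less so, or not, in males, and in 18 it was higher in female cKO and less so, or not, in males. In 11 of the 68 the male estimate had the opposite sign to the female one. Of the core, 6 genes were among the 68, 5 of them named here. Itgal changed by -1.36 in males and -3.59 in females (log2; adjusted p of the difference = 0.00121), and Tmem154 by -1.76 and -3.48 (adjusted p = 0.00839). Tspan7 changed by -0.92 in males and -1.92 in females (adjusted p = 0.000325), Liph by -0.68 and -1.70 (adjusted p = 0.0043) and Il20rb by 1.64 and 3.93 (adjusted p = 0.00148). These 5 genes thus moved the same way in both sexes, by less in males.

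Ccr1 and Gdf3 were the 2 genes called in males and not in females. Ccr1 had a log2 change of 2.56 in males and 0.43 in females, and the difference did not pass (adjusted p = 0.383). Gdf3, a ligand of the TGF-beta family, had 1.97 to 5.02 CPM in male cKO and 6.62 to 10.5 CPM in male wildtype. Its log2 change was -1.03 in males and -0.53 in females, with an adjusted p of the difference of 0.834. Neither gene is therefore shown to respond in 1 sex alone.

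Below the threshold, the ranking of male genes by p continued in the same female direction. Genes ranked 32 to 100, with adjusted p of 0.0522 to 0.266, numbered 69, of which 51 were lower in cKO. In females 97.1% of them had the same sign, and 54 (78.26%) were called in that direction. The share called in females was 64.0% in the next 100 genes of the ranking, 41.5% in the following 200, 32.5% in the following 400 and 18.88% in the following 800, which end at rank 1600. Beyond rank 1600 it was 4.245%, with 58.15% of the same sign. At an unadjusted p under 0.05 there were 803 genes in males (4.86% of those tested, 332 higher or 2.01% and 471 lower or 2.85%), a share close to what that threshold gives with no effect. An adjusted p under 0.1 held for 46 genes and one under 0.2 for 88.

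**Figure D3:**
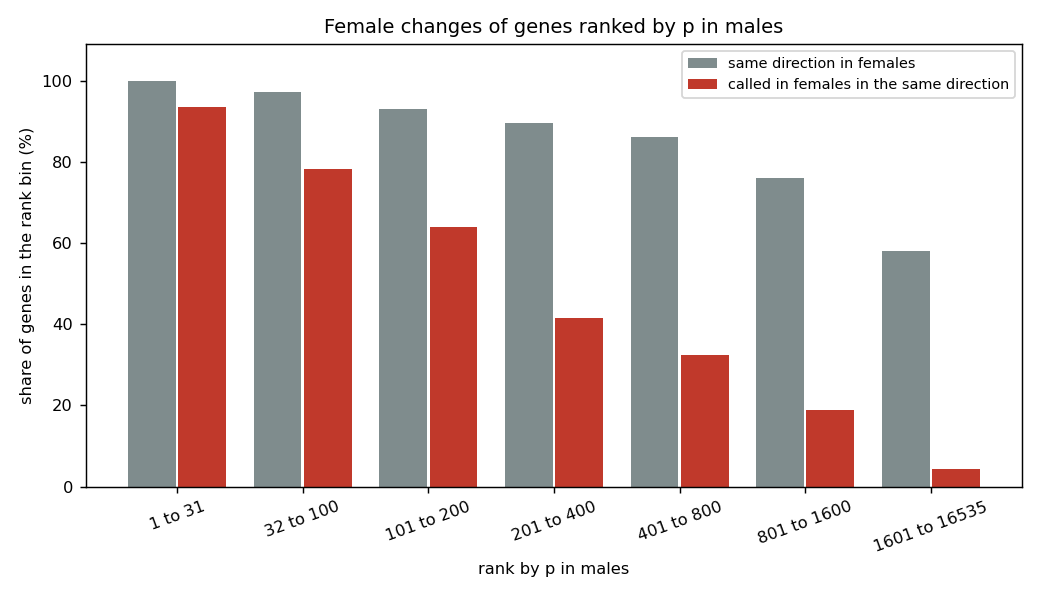
Share of genes in each bin of the male ranking by p that had the same direction in females (grey) and that were called in females in that direction (red), in percent. Both shares fall from the 31 called genes on the left, at 100% and 93.55%, to 58.15% and 4.245% beyond rank 1600.

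Genes higher in cKO at the next ranks did not pass. Ass1, argininosuccinate synthase, had 17.1 to 21.1 CPM in cKO and 5.004 to 12 CPM in wildtype with no overlap (log2 1.01, adjusted p = 0.0844). Lyz1, a lysozyme, averaged 26.7 CPM in cKO and 12.2 CPM in wildtype (log2 1.13, adjusted p = 0.0796). Enpp5, of the nucleotide pyrophosphatase family, averaged 25.6 CPM in cKO and 16.9 CPM in wildtype (log2 0.59, adjusted p = 0.0796). All 3 were called higher in females, and only for Lyz1 was the difference between the sexes called (log2 1.13 in males and 3.28 in females, adjusted p = 0.0043).

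Genes lower in cKO at similar ranks are given here as members of the function lists, none of them called in males. P2ry2, a receptor for extracellular ATP and UTP, had 7.34, 9.17 and 13.1 CPM in cKO and 13.2, 17.5 and 24.9 CPM in wildtype (log2 -0.89, adjusted p = 0.0651). Pdgfc, a platelet-derived growth factor, had 1.75 to 3.50 CPM in cKO and 3.56 to 7.37 CPM in wildtype (log2 -1.17, adjusted p = 0.0796). Oas3, an antiviral oligoadenylate synthetase, had 5.05, 8.01 and 11.3 CPM in cKO and 11.8, 22.8 and 37.1 CPM in wildtype (log2 -1.45, adjusted p = 0.0844). For these 3 genes every cKO library lay below every wildtype library. Siglec1, a sialic acid receptor of macrophages, averaged 20.3 CPM in cKO and 41.9 CPM in wildtype, with overlap (log2 -1.05, adjusted p = 0.105). Fcrls, a marker of resting microglia, averaged 259 CPM in cKO and 444 CPM in wildtype (log2 -0.78, adjusted p = 0.266). Among genes picked after their values were seen, Atp2a3, a calcium pump of the endoplasmic reticulum, was the first to miss the threshold (log2 -1.14, adjusted p = 0.0522). P2rx1, an ATP-gated channel, averaged 0.377 CPM in cKO and 1.69 CPM in wildtype (log2 -2.14, adjusted p = 0.0807).

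The largest differences between the sexes by p lay in genes not called in males. Pld4, an endolysosomal nuclease, had 318, 366 and 441 CPM in male cKO and 355, 476 and 668 CPM in male wildtype. Its log2 change was -0.40 in males (adjusted p = 0.43) and -2.04 in females, and the difference was called (adjusted p = 3.2e-05). Gpr35, a G protein-coupled receptor, had a log2 change of -0.72 in males and -3.76 in females (adjusted p of the difference = 4.53e-05). Its level was 66.4 CPM in male cKO replicate 1, against 17.6 to 26.7 CPM in the other male cKO libraries. Male wildtype libraries stood at 37.6 to 56.7 CPM. Alox5ap, which presents arachidonic acid to 5-lipoxygenase, had a log2 change of -0.74 in males and -3.43 in females (adjusted p = 0.000114). Male cKO replicate 1 again stood apart, at 94.6 CPM against 42.3 to 50.5 CPM in the other male cKO libraries. Male wildtype levels of Alox5ap were 75.4 to 103 CPM. The signalling adaptors Grap and Themis2 had log2 changes of -0.52 and -0.48 in males, with no overlap of cKO and wildtype libraries, and of -1.88 and -1.66 in females (adjusted p of the difference = 0.000191 and 0.000325). Estimates of Pld4, Gpr35, Alox5ap, Grap and Themis2 were thus negative in both sexes.

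On the other side, Tgfb2, a TGF-beta ligand, had a log2 change of 0.74 in males (adjusted p = 0.699) and 3.45 in females, with an adjusted p of the difference of 0.000747. Mmp2, a gelatinase, had 37.9 to 50.6 CPM in male cKO and 37.9 to 51.5 CPM in male wildtype, groups that covered the same range. Its log2 change was -0.01 in males and 1.10 in females (adjusted p of the difference = 0.00344). Adora2a, an adenosine receptor, had a log2 change of -0.03 in males and 1.98 in females (adjusted p of the difference = 0.00839). Over all 1279 genes called in females, 1145 (89.52%) had the same sign in males, against 60.52% of all genes tested. The median absolute log2 change of these 1279 was 0.265 in males and 0.999 in females. The 1279 genes were selected by the female test, which favours large female estimates, so these medians are a description.

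Functions were described with 35 lists of pathway genes, each by its counts and its median beside the median of all genes tested, 0.008 in males. In bulk RNA, fewer cells of a type and less RNA per cell cannot be told apart. Of 44 interferon-stimulated genes, which mediate antiviral defence, none was called in males, 10 were lower and none higher at an unadjusted p under 0.05, and 41 had a negative estimate. The median log2 change was -0.28 in males and -0.963 in females, where 31 were called lower. After Oas3 the smallest p-values in males belonged to Cmpk2 (log2 -0.74, adjusted p = 0.18), Rsad2 (-1.11, adjusted p = 0.298) and Ifit3b (-0.88, adjusted p = 0.527), which overlapped between cKO and wildtype. The median stayed between -0.394 and -0.169 with any 1 male library left out, nearest to 0 without wildtype replicate 3, and it was -0.23 without male cKO replicate 3. It was -0.094 with a covariate for markers of infiltrating cells.

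**Figure D4:**
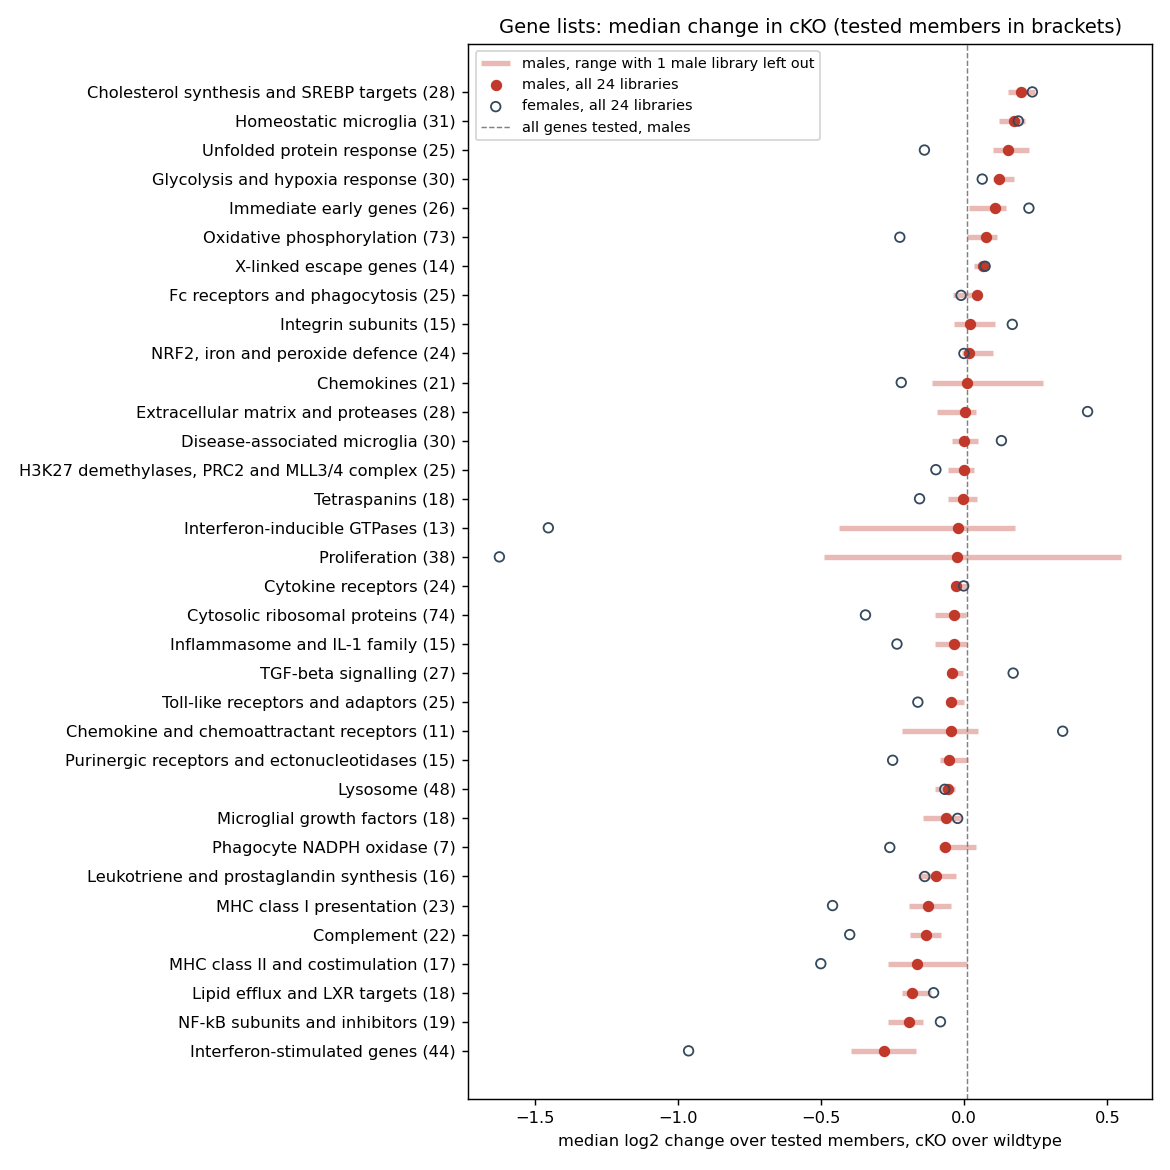
Median log2 change in cKO over wildtype for 34 pathway lists, in males (red points, with the range over 12 fits that each leave out 1 male library) and in females (open circles), with the number of tested members in brackets and the male median of all genes as a dashed line. Interferon-stimulated genes lie lowest in males at -0.28 and cholesterol synthesis lies highest at 0.197, and the female medians of interferon-inducible GTPases and proliferation lie far to the left of the male ones.

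The 13 interferon-inducible GTPases tested, guardians against intracellular pathogens, had estimates of both signs in males. The list names 17, of which 14 matched an identifier, so family members outside the 13 are not covered. None of the 13 was called or reached an unadjusted p under 0.05, and 5 estimates were positive and 8 negative. The median log2 change was -0.023 in males. In females 11 of the 13 were called lower, with a median of -1.453. The male median was -0.438 without cKO replicate 1 and 0.178 without cKO replicate 4. It was 0.512 in a fit of replicates 1 to 3 and -0.714 in a fit of replicates 4 to 6. The difference between the sexes had an unadjusted p under 0.05 for 11 members and was called for none. Irgm2, a regulator of this family, had 56.7, 93.0 and 162 CPM in male cKO and 90.7, 106 and 155 CPM in male wildtype, with wide overlap. Genes of antigen presentation leaned lower without calls. Of 23 MHC class I genes 19 had a negative estimate (median -0.127 in males and -0.46 in females), and of 17 MHC class II and costimulation genes 15 did (median -0.166 and -0.501). Both male medians turned positive with replicates 1 to 3 alone, at 0.01 and 0.088, and were -0.227 and -0.447 with replicates 4 to 6 alone. With the covariate for infiltrating-cell markers they were -0.049 and -0.075. The median of the class II list was also 0.008 without male wildtype replicate 6. The costimulatory ligand Cd80 had 2.41 to 6.67 CPM in cKO and 5.42 to 8.43 CPM in wildtype (log2 -0.85, adjusted p = 0.332).

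Complement and NF-kB genes also lay on the lower side without a call. Of 22 complement genes 7 were lower and 1 higher at an unadjusted p under 0.05, and the median log2 change was -0.132 in males. That median was -0.07 with the covariate for infiltrating-cell markers, -0.082 without cKO replicate 2 and -0.041 over genes of at least 1 CPM. C3ar1, the receptor of the C3a fragment, had 385, 430 and 478 CPM in cKO and 493, 576 and 619 CPM in wildtype, with no overlap (log2 -0.41, adjusted p = 0.298). C4b, a component of the classical pathway, had a log2 change of -0.74 in males (adjusted p = 0.753) and -2.94 in females, and this difference was called (adjusted p = 0.0127). Male cKO replicate 1 held 156 CPM of C4b, against 36.1 to 76.2 CPM in the other male cKO libraries. Male wildtype levels of C4b were 74.7 to 188 CPM. Of 19 NF-kB subunits and inhibitors 3 were lower and none higher at an unadjusted p under 0.05, with a median of -0.194.

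Cholesterol genes leaned higher. Of 28 genes of cholesterol synthesis and other SREBP targets, which supply sterols to the cell, 6 were higher and none lower at an unadjusted p under 0.05, and 23 had a positive estimate. The median log2 change was 0.197 in males and 0.238 in females, where 8 were called higher. None was called in males. The sterol-regulated factor Srebf2 had 59.9, 62.0 and 71.0 CPM in cKO and 34.2, 49.5 and 59.2 CPM in wildtype, groups that just failed to overlap (log2 0.45, adjusted p = 0.275). The fatty acid enzyme Acaca had a log2 change of 0.51 (adjusted p = 0.193) and the sterol carrier Stard4 one of 0.72 (adjusted p = 0.43), both with overlap. The median was 0.289 with replicates 1 to 3 alone and 0.082 with replicates 4 to 6 alone. Of 18 genes of lipid efflux, many of them targets of the LXR sterol sensors, 16 had a negative estimate, with a median of -0.181 in males (-0.116 without wildtype replicate 4) and -0.107 in females. Abcg1, a cholesterol exporter, averaged 297 CPM in cKO and 368 CPM in wildtype (log2 -0.31, adjusted p = 1), and Apoc4, an apolipoprotein, had a log2 change of -0.86 (adjusted p = 0.95).

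Genes of resting microglia leaned higher as a list but not uniformly. Of 31 homeostatic genes 25 had a positive estimate, with a median of 0.173 in males and 0.189 in females, 4 higher and 1 lower at an unadjusted p under 0.05, and none called. The male median was 0.089 with the covariate for infiltrating-cell markers and 0.059 with the title number as a random effect. Siglech, a sialic acid receptor of microglia, had 108, 141 and 206 CPM in cKO and 50.3, 92.1 and 111 CPM in wildtype (log2 0.87, adjusted p = 0.299). Selplg, a ligand of selectins, had a log2 change of 0.55 (adjusted p = 0.43), whereas Fcrls went the other way. Of 30 genes of disease-associated microglia only Ccl6 was called, 15 estimates were positive and 15 negative, and the median was -0.001. Gpnmb, a glycoprotein of lipid-laden phagocytes, averaged 2676 CPM in cKO and 4808 CPM in wildtype, with overlap (log2 -0.84, adjusted p = 0.453).

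Housekeeping lists gave small medians in males. Of 73 oxidative phosphorylation genes 67 had a positive estimate, with a median of 0.077 in males and -0.225 in females. The male median was 0.008 without cKO replicate 1, and 0.203 with the covariate for infiltrating-cell markers. Ndufs5, a subunit of complex I, had 4.98 to 7.93 CPM in cKO and 0 to 3.18 CPM in wildtype (log2 1.92, adjusted p = 0.816). The 74 cytosolic ribosomal protein genes had a median of -0.036 in males and -0.345 in females, and the ribosomal median turned positive in males with the covariate for infiltrating-cell markers (0.026). The 25 genes of the unfolded protein response had a median of 0.153 in males and -0.139 in females. The unfolded protein list had a median of 0.252 with replicates 1 to 3 alone and -0.004 with replicates 4 to 6 alone. Of 30 glycolysis and hypoxia genes 4 were higher and 1 lower at an unadjusted p under 0.05, with a median of 0.121 in males, 0.208 with replicates 1 to 3 alone and 0.021 with replicates 4 to 6 alone. The 38 proliferation genes had 19 positive and 19 negative estimates in males and a median of -0.026, against -1.624 in females, where 10 were called lower. The male median of this list was -0.49 without cKO replicate 1 and 0.549 without wildtype replicate 3, so it has no settled sign.

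Markers of other cell types were measured in the same libraries. Summed microglial markers stood at 7728 to 9649 CPM in male cKO and 5763 to 8402 CPM in male wildtype. Markers of border-associated macrophages summed to 31.4 to 55.5 CPM in cKO and 54.0 to 100 CPM in wildtype. Siglec1 and Ms4a7 held most of that sum, Cd209f was at 0 in all 12 libraries, and 3 of 6 tested markers had a negative estimate. Monocyte markers summed to 318 to 1051 CPM in cKO and 179 to 369 CPM in wildtype, mostly Fn1 (517 CPM on average in cKO and 267 CPM in wildtype), a gene that other cells also express. The highest monocyte sum, 1051 CPM, stood in male cKO replicate 1, the library with the highest Ccr1 level. Ccr2, the defining monocyte receptor, averaged 0.366 CPM in cKO and 0.776 CPM in wildtype, and 5 of 9 tested monocyte markers had a negative estimate. T cell markers summed to 5.76 to 9.998 CPM in cKO and 7.66 to 10.5 CPM in wildtype. All 10 markers of meningeal fibroblasts had a negative estimate, with sums of 188 to 482 CPM in cKO and 262 to 615 CPM in wildtype. Of 10 endothelial markers 8 had a negative estimate, 5 of them at an unadjusted p under 0.05, with a median log2 change of -0.649. Their summed level leaned the other way, at 60.3, 91.5 and 140.9 CPM in cKO (lowest, median and highest) and 71.3, 81.3 and 91.2 CPM in wildtype. The part of these cells in the changes above was not tested, beyond the fit with a covariate for infiltrating-cell markers, in which 26 genes were called and 21 of the 31 were kept.

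All 31 genes kept their direction in each of 26 other fits. They were selected for a difference in these same libraries, and every fit reuses those counts. A kept direction was therefore close to fixed in advance and is a description. In the fits that left out 1 male library, 15 to 30 genes were called. The count fell to 20 without cKO replicate 5 or wildtype replicate 5, 19 without wildtype replicate 3, 18 without wildtype replicate 1, 16 without cKO replicate 2 or wildtype replicate 4, and 15 without cKO replicate 6. Tspan7, Tmem154, Il20rb, Ak1, Ggt5, Ccl6, Itgal, Ccl9, Vopp1, Arhgef5, Emilin2, Smap2 and Stac2, 13 genes in all, were called in each of the 12 fits. Liph was lost without cKO replicate 6 (log2 -0.63, adjusted p = 0.0628), and Slc2a9 without cKO replicate 6 or wildtype replicate 4 (-0.57 and -0.60, adjusted p of up to 0.0628). Kdm6a was lost without cKO replicate 2 or 6 or wildtype replicate 2 (-1.31, -1.31 and -1.23, adjusted p = 0.064, 0.0628 and 0.0548). Another 14 genes were lost in 6 or more of the 12 fits, with adjusted p of up to 0.209, and Ccr1, Gdf3, Aoah, Adgre1, Ramp1, Sh3bp5, B3gnt8 and Lrguk were each lost in at least 10. Within replicates 1 to 3 alone and within replicates 4 to 6 alone no gene was called by edgeR, with 1095 and 491 genes at an unadjusted p under 0.05, and Tspan7 had log2 changes of -1.003 and -0.85.

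**Figure D5:**
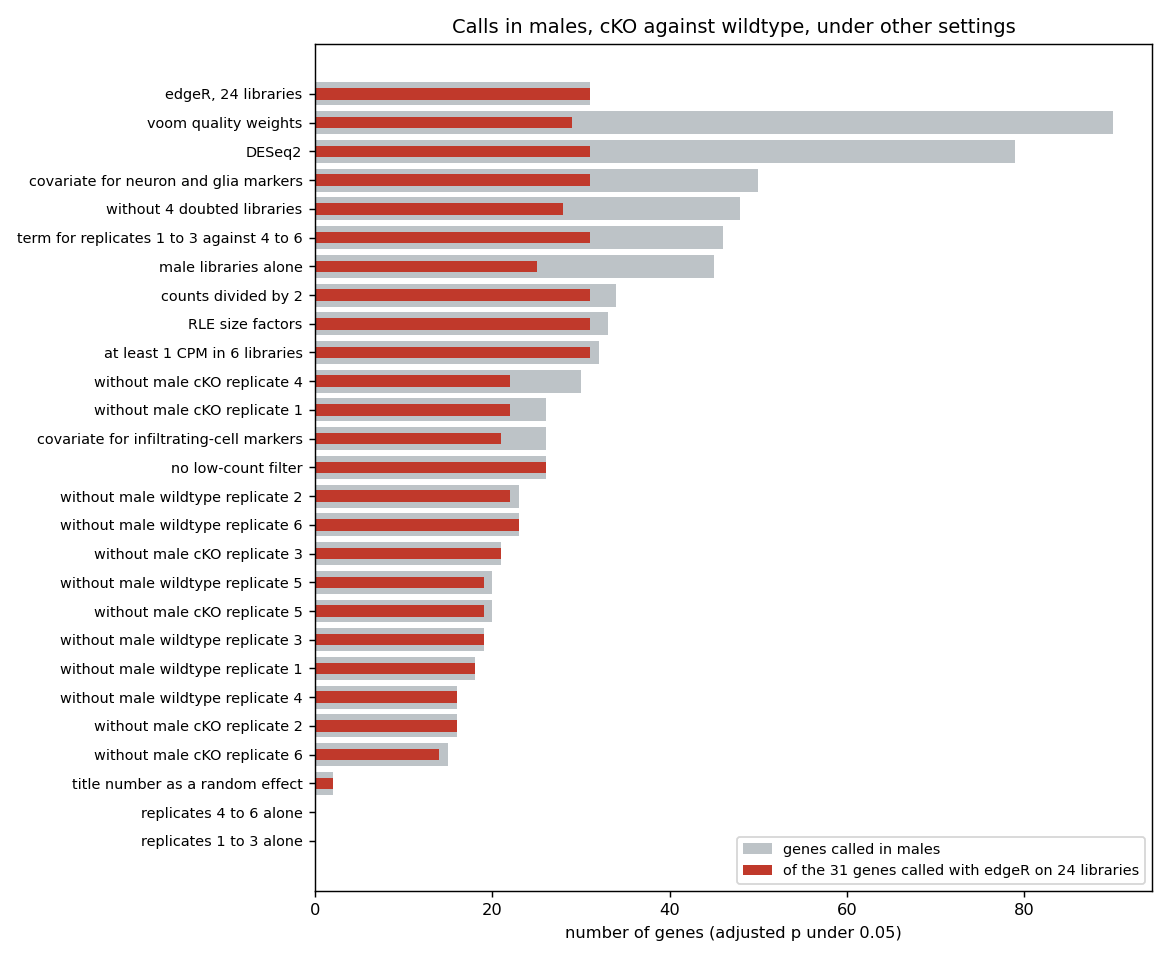
Number of genes called in males, cKO against wildtype, with edgeR on 24 libraries (top) and under 26 other settings, as grey bars, and how many of the 31 they keep, as red bars. Counts run from 0 within either set of replicates and 2 with the title number as a random effect to 90 with voom quality weights.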

How the data were processed

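Spinal cord microglia RNA of 24 libraries was measured by RNA-seq. Per the labels' protocols, libraries were stranded and mRNA-enriched. The submitters' processing notes name mm10, Trimmomatic, FastQC and bcl2fastq 2.17, but for the aligner, the counting tool and its strand setting the entry is: not given in the sources used here. Raw counts per Ensembl gene, not normalized, are what the authors deposited, in 1 table. Of 39017 identifiers 37693 (96.61%) matched GENCODE. Even numbers made up 71.8% of low counts and 51.7% of high ones.

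Counts were fitted with edgeR 4.0.16 (R 4.3.3): filterByExpr (16535 genes), TMM, glmQLFit on all 24 libraries with 1 mean per group, glmQLFTest for male cKO minus male wildtype, the same in females and the difference. Genes with a Benjamini-Hochberg adjusted p under 0.05 over all genes tested were called. SE is the absolute log2 change over the root of F. Single quantities were compared by 2-sided exact permutation over 924 regroupings. The depth was 28515270 to 36768501 counts per male library.

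The members, the 52 gene lists (35 of pathways, 17 of cell markers) and the tests were chosen with earlier results of these data known. Named genes were all those called (20 by p in each direction), the next by p up to 15 in a direction with fewer, the 5 with the smallest p in each direction of the difference, and 4 per list, leaving out unnamed models and pseudogenes. The alternatives were DESeq2 1.42.0, RLE factors, other filters, halved counts, male libraries alone, voom quality weights and a random title number (limma 3.58.1), cell-marker covariates, a term that splits replicates 1 to 3 from 4 to 6, each of these sets alone, each male library left out, and removal of 4 doubted libraries (male cKO 3 and female wildtype 2, 3 and 5). Among the doubted libraries, female wildtype 3 held 8 counts of the Y-linked Uty. Female wildtype 5 lay at 92.27 on the first component of all libraries, with every other library at or below 40.2. Summed skin and hair markers reached 369 CPM in female wildtype, against at most 8.06 CPM in male cKO and 6.79 CPM in male wildtype. The fit was tested on simulated counts. A few genes that the naming rule selects are not reported here.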

Additional observations from a re-analysis of the deposited data

Results flagged for a closer look

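Among 68 groups of 6 libraries checked for a single value far from the others, 4 had one, and chance alone gives about 5% of groups. Rgl1 stood at 26.4 CPM in male cKO replicate 4, below the other cKO libraries. Gdf3 stood at 1.97 CPM in male cKO replicate 1, below the other cKO libraries, and at 10.5 CPM in male wildtype replicate 4, above the other wildtype libraries. Arhgef5 stood at 1.88 CPM in male wildtype replicate 5, below the other wildtype libraries.

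For 19 named genes the cKO effect differed between the sexes by the interaction test, and the values here are the log2 change in males minus that in females. Among genes lower in female cKO, the difference was 3.03 for Gpr35, 2.69 for Alox5ap, 2.22 for Itgal, 2.19 for C4b, 1.72 for Tmem154, 1.65 for Pld4, 1.54 for Ebi3, a cytokine subunit, 1.36 for Grap, 1.31 for Alox5, the 5-lipoxygenase, 1.18 for Themis2, 1.02 for Liph, 0.99 for Tspan7 and 0.67 for Adora3, an adenosine receptor. Among genes higher in female cKO, it was -2.71 for Tgfb2, -2.29 for Il20rb, -2.14 for Lyz1, -2.01 for Adora2a, -1.56 for Cspg4, a proteoglycan of pericytes and glial precursors, and -1.11 for Mmp2. For Gpr35, Alox5ap and C4b, male cKO replicate 1 stood well above the other male cKO libraries. The sexes share title numbers within a genotype, and with the title number as a random effect 104 differences were called over all genes.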

How the results depend on the processing

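All 31 genes kept their direction under all 26 other settings, which reuse the counts that selected them, so this was close to fixed in advance. Medians of gene lists near 0 did not all keep their sign. The male median kept its sign in 18 of 26 settings for interferon-inducible GTPases, 25 for MHC class I, 24 for MHC class II and 16 for proliferation. The counts of genes higher and lower in male cKO, of genes shared by the sexes and of called differences were 12, 19, 29 and 68. They were 23, 56, 74 and 150 with DESeq2. Voom quality weights gave 23 higher, 67 lower and 88 shared, and the neuron and glia covariate 33 lower and 48 shared. Male libraries alone gave 30 lower. Removal of the 4 doubted libraries gave 19 higher, 29 lower and 45 shared, and the term for replicates 1 to 3 against 4 to 6 gave 30 lower, 44 shared and 111 differences. The title number as a random effect gave 0 higher, 2 lower, 2 shared and 104 differences. Replicates 1 to 3 alone gave 0, 0, 0 and 15, and replicates 4 to 6 alone 0, 0, 0 and 4, where fewer libraries were fitted. Leaving out 1 male library gave 8 to 12 higher, 7 to 18 lower, 15 to 29 shared and 43 to 77 differences, and a difference of -1.88 to -1.46 for Kdm6a CPM in males. That difference was -1.71 CPM with all 12 libraries and -1.65 CPM without TMM factors, a setting chosen after seeing the data. It was -1.94 CPM in replicates 1 to 3 and -1.48 CPM in replicates 4 to 6, with an exact permutation p of 0.1 in each, the smallest that 3 against 3 allow. Causes of these shifts were not tested. No paired analysis was possible because the replicate numbers follow accession order and no title number is shared by cKO and wildtype libraries. Genes below 1 CPM, such as Prss46, rest on few counts.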
